A study of Arabidopsis thaliana with 9 samples.

Results

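The genes described here are 6 components of the ER stress response and ER protein folding of Arabidopsis thaliana, followed on microarrays of seedlings with raised or lowered levels of signal peptide peptidase. They are the transcription factors BZIP17 (AT2G40950), BZIP28 (AT3G10800) and BZIP60 (AT1G42990), the lectin chaperones CNX2 (AT5G07340, a calnexin) and CRT1B (AT1G09210, a calreticulin), and the co-chaperone ERDJ3B (AT3G62600). The members were chosen by locus, with earlier results of these data known, and each is read by 1 probe set. They are 6 of the 13356 genes that have a probe set paired with 1 gene in the platform annotation. All 3 groups were 7-day-old whole seedlings in the Col-0 background on MS agar, with the RNA of 20 plants pooled per array and 3 arrays per group. The AtSPP-overexpressed lines carry the full-length AtSPP between the CaMV 35S promoter and the Nos terminator, in vectors that the labels name pZH2B, pZH3B and pZH4B for replicates 1, 2 and 3. The AtSPP knockdown lines carry sense and antisense copies of an AtSPP fragment in an RNAi vector, with a 600 bp fragment in replicate 1 and a 400 bp fragment in replicates 2 and 3. The Col-0 seedlings carry no transgene. The labels speak of 3 lines of each transgenic kind without saying which array holds which line, and of no separate cultures for Col-0, so p-values cover only the spread among these arrays, which may be technical.

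In the unfolded protein response, misfolded proteins in the ER lumen switch on transcription factors that raise the output of ER chaperones. BZIP17 and BZIP28 encode transcription factors anchored in the ER membrane. Under stress they move to the Golgi, where cuts that have been assigned to the site-1 and site-2 proteases free the part that enters the nucleus. BZIP60 is activated in another way, by unconventional splicing of its mRNA by the ER kinase and ribonuclease IRE1. Calnexin, which spans the ER membrane, and calreticulin, which is soluble in the lumen, bind glycoproteins through their sugar chains and retain them until they are folded. ERDJ3B is a J-domain partner of BiP, the HSP70 chaperone of the ER. AtSPP is an aspartic protease that also lies in the ER membrane, where it cleaves signal peptides within the lipid bilayer.

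The deposited values are signals normalized with the distribution free weighted (DFW) algorithm, which draws the arrays close together wherever they differ little. No source used here gives the base of their log, and they were taken as log2 values. Across the 9 arrays a probe set had a median SD of 5.38 microunits, with 1 microunit standing for 1e-06 DFW units. Differences below are therefore in microunits of the DFW signal, and no fold change is read from them because the log base is not given. AtSPP itself lay 216700 ± 34820 microunits above the Col-0 mean in the AtSPP-overexpressed lines (SD, n = 3) and at -47880 ± 9614 in the knockdown lines (SD, n = 3), with no overlap of either group with Col-0. The increase passed in limma (adjusted p = 0.014) and the decrease did not (adjusted p = 0.125), with the increase losing its call without Col-0 replicate 1 or 2 (adjusted p = 0.0712 and 0.081) or with the 6 arrays of that comparison alone (adjusted p = 0.106). The decrease was called in 3 of 19 limma alternatives, with the 6 arrays of its comparison alone (adjusted p = 0.0303), without AtSPP-overexpressed replicate 2 (adjusted p = 0.0379) and after centring on array medians (adjusted p = 0.00443), and also by rank products. Centring on array medians subtracts its median from each array, which was 6.3029 on each knockdown array and 6.3023 on each Col-0 array. It therefore shifts the difference between these groups by the same amount in every probe set. Of the genes listed as markers, 2 of 6 for green tissue, 1 of 6 for root, 1 of 3 for pollen and 0 of 4 for seed storage had a probe set paired with 1 gene, so the labelled whole seedling could be checked only in part. The green-tissue genes RCA and LHCB4.2 had a summed signal of 22.570 to 22.573 in the AtSPP-overexpressed lines, 22.582 to 22.584 in the knockdown lines and 22.573 on the Col-0 arrays. In all 3 groups the root marker was at 6.33 and the pollen marker at 5.82, beside array medians of 6.3023 to 6.3029. Signals on this scale do not reach 0 where a gene is silent, so these levels do not show that root or pollen RNA was present.

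BZIP17 was the only 1 of the 3 transcription factor genes called in limma on the deposited values, and only in the knockdown lines. Relative to the Col-0 mean, its signal was 0.468, -1.16 and 0.695 microunits on Col-0 replicates 1 to 3. It was -1.56, -2.24 and -1.47 microunits on the AtSPP-overexpressed arrays. On the knockdown arrays it was -3.30, -2.90 and -4.55 microunits. All 6 transgenic arrays lay below all 3 Col-0 arrays, and the 3 knockdown arrays lay below the 3 AtSPP-overexpressed arrays. However, AtSPP-overexpressed replicate 3 (-1.47) and Col-0 replicate 2 (-1.16) lay close together, beside an SD of 1.01 within Col-0. In the knockdown lines BZIP17 fell by 3.59 microunits (standard error 0.783, limma adjusted p = 0.0297), a difference of -4.45 residual SDs. With AtSPP overexpressed the difference was -1.76 microunits (standard error 0.783, limma adjusted p = 0.43). The changes were small in DFW units, and BZIP17 varied less over the 9 arrays than most probe sets did, with 24.2% of the 22746 having a lower SD. Its mean signal of 6.75 was the lowest among the members, beside array medians of 6.3023 to 6.3029. The knockdown call held in 8 of 19 limma alternatives and was lost when any 1 of these 6 arrays was left out, with adjusted p from 0.0516 to 0.096: the 3 knockdown arrays, AtSPP-overexpressed replicate 1 and Col-0 replicates 1 and 3. It was also lost with the 6 arrays of the comparison alone (adjusted p = 0.0806), with an intensity trend (adjusted p = 0.189), over the brighter 50% of the probe sets (adjusted p = 0.139) and after quantile normalization (adjusted p = 0.265), and with the replicate number as a block (adjusted p = 0.0804). Its adjusted p ranged from 1.15e-05, after centring on array medians, which shifted all probe sets alike, to 0.265 over the 19.

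BZIP28 had overlapping groups in the deposited values, and its result turned on the normalization. Its Col-0 arrays were at -8.56, 3.20 and 5.36 microunits from their mean, its AtSPP-overexpressed arrays at -1.001, 2.74 and -5.31, and its knockdown arrays at -0.0327, -2.51 and 4.999. The 3 Col-0 arrays spanned both transgenic groups. The difference from Col-0 was -1.19 microunits in the AtSPP-overexpressed lines (95% interval -11.3 to 8.91, limma adjusted p = 0.965) and 0.819 in the knockdown lines (95% interval -9.28 to 10.9, limma adjusted p = 0.943). The knockdown difference turned negative and was called after quantile normalization (-1216 microunits, adjusted p = 0.00051) and after centring on array medians (-551 microunits, adjusted p = 1.15e-05). The shift from centring was one that every probe set shared. The overexpression difference was called after quantile normalization (-692 microunits, adjusted p = 0.0143).

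BZIP60 had by far the widest spread of the 3 transcription factor genes, and the spread lay within groups. Its Col-0 arrays were at -471, -63.2 and 534 microunits from their mean. The AtSPP-overexpressed arrays were at -430.3, 398 and -403, and the knockdown arrays at -224, -17.5 and 106. Replicate 2 of the AtSPP-overexpressed lines and replicate 3 of Col-0 were the highest of the 9 arrays, and the groups overlapped throughout. The SD within a group was 506 microunits for Col-0, 471 with AtSPP overexpressed and 167 with it knocked down, and 96.1% of all probe sets had a lower SD over the 9 arrays. The differences from Col-0 were -145 microunits (95% interval -910.2 to 620, limma adjusted p = 0.935) and -45.3 (95% interval -810.4 to 720, limma adjusted p = 0.96) in the AtSPP-overexpressed and knockdown lines. These intervals are wide enough to hold differences larger than any measured for the other members. In the knockdown lines BZIP60 was called after quantile normalization (-1264 microunits, adjusted p = 0.00137) and after centring on array medians (-597.5 microunits, adjusted p = 0.0354), which shifted all probe sets alike. The array reads the abundance of BZIP60 RNA, and no source used here says whether its probes tell the spliced form apart.

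**Figure D1:**
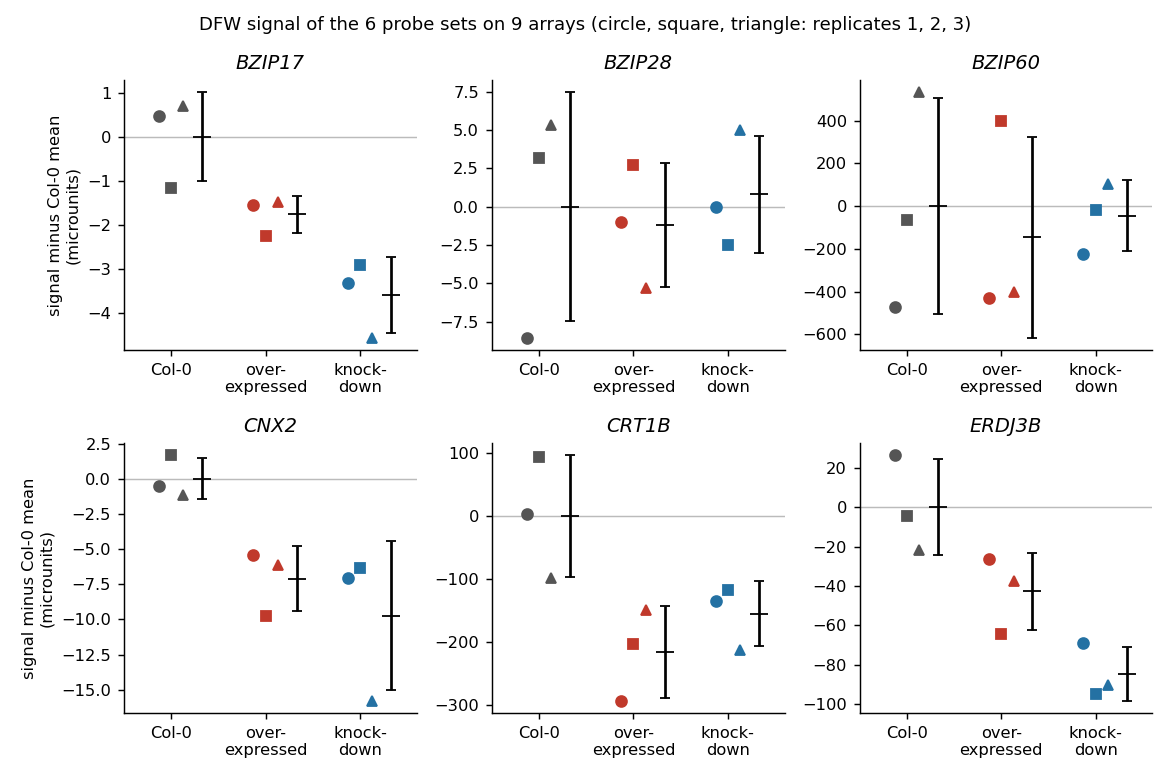
DFW signal of each of the 6 genes on the 9 arrays, in microunits from the mean of the 3 Col-0 arrays, with the mean and SD of each group (n = 3) as a bar beside the points; the scale of each panel is its own. In BZIP17, CNX2, CRT1B and ERDJ3B all 6 transgenic arrays lie below the 3 Col-0 arrays, whereas in BZIP28 and BZIP60 the groups overlap.

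CNX2 was lower on every transgenic array than on any Col-0 array without passing the test. The Col-0 arrays were at -0.516, 1.66 and -1.14 microunits from their mean. The AtSPP-overexpressed arrays were at -5.44, -9.74 and -6.16, and the knockdown arrays at -7.03, -6.34 and -15.8. Knockdown replicate 3 stood apart from its 2 fellow arrays, which lay among the AtSPP-overexpressed arrays. The difference from Col-0 was -7.11 microunits in the AtSPP-overexpressed lines (standard error 2.72, limma adjusted p = 0.345) and -9.73 in the knockdown lines (standard error 2.72, limma adjusted p = 0.0639). Without knockdown replicate 3 the latter was -6.68. After quantile normalization, which keeps only the order of the probe sets on each array, both differences turned positive (169 and 209.6 microunits). After centring on array medians, which shifted all probe sets alike, the knockdown difference was called (-562 microunits, adjusted p = 1.15e-05).

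CRT1B, the other lectin chaperone, had the largest difference of the 6 genes in DFW units. Its Col-0 arrays were at 3.64, 94.3 and -97.9 microunits from their mean. The AtSPP-overexpressed arrays were at -294, -203 and -149, and the knockdown arrays at -134, -117 and -213. Every transgenic array was below the lowest Col-0 array, that of replicate 3, and the nearest of them, knockdown replicate 2, lay close to it. The difference from Col-0 was -215 microunits in the AtSPP-overexpressed lines (standard error 59.0, limma adjusted p = 0.2) and -155 in the knockdown lines (standard error 59.0, limma adjusted p = 0.149). By size the first of these ranked 1056 among the 22746 probe sets. CRT1B passed for overexpression in 1 of 19 limma alternatives, quantile normalization (-937 microunits, adjusted p = 0.00159). For knockdown it passed in 2 of 19, quantile normalization (-1202 microunits, adjusted p = 0.000239) and centring on array medians (-707 microunits, adjusted p = 1.89e-05), which shifted all probe sets alike.

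ERDJ3B, the partner of BiP, gave the firmest difference. The Col-0 arrays were at 26.3, -4.52 and -21.8 microunits from their mean. The AtSPP-overexpressed arrays were at -26.3, -64.3 and -37.4, and the knockdown arrays at -69.0, -94.8 and -90.4. The 3 groups did not overlap, with Col-0 highest, the AtSPP-overexpressed lines between and the knockdown lines lowest, although the highest AtSPP-overexpressed array and the lowest Col-0 array lay close together. In the knockdown lines ERDJ3B fell by 84.8 microunits (standard error 15.4, limma adjusted p = 0.0162), a difference of -4.30 residual SDs. In the AtSPP-overexpressed lines the difference was -42.7 microunits (standard error 15.4, limma adjusted p = 0.311). The knockdown call held in 17 of 19 limma alternatives, and was lost without knockdown replicate 2 (adjusted p = 0.0565) or 3 (adjusted p = 0.0621), in a range from 7.76e-18 to 0.0621. In the AtSPP-overexpressed lines the difference was 0 after quantile normalization.

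Counted together, 0 of the 6 genes passed in limma with AtSPP overexpressed, where 0.545% of all probe sets did, 0.299% of them higher and 0.246% lower. An unadjusted p under 0.05 was reached by 3 of the 6 (CNX2, CRT1B and ERDJ3B, all lower), against 12.8% of all probe sets and 5.71% for lower alone. All 6 differences were negative, as were 47% of all. In the knockdown lines 2 of the 6 passed, both lower, where 13.5% of all probe sets were called, 6.94% lower and 6.56% higher. A further 2, CNX2 and CRT1B, had an unadjusted p under 0.05 there, so that 4 of 6 reached it, all lower, against 26.8% of all probe sets and 14.4% for lower alone. The difference was negative in 5 of the 6, and in 56.2% of all. In each comparison with Col-0, 4 of the 6 genes had all 3 transgenic arrays below the 3 Col-0 arrays, a share that was 7.28% over all probe sets with AtSPP overexpressed and 18.5% with AtSPP knocked down. For these 4 genes, BZIP17, CNX2, CRT1B and ERDJ3B, all 6 transgenic arrays lay below, as for 4.65% of all probe sets. The 2 comparisons share their 3 Col-0 arrays, so a low position in one is not independent of a low position in the other. An exact permutation test of 3 arrays against 3 gave p = 0.1 for each of these 4 genes in each comparison (two-sided), which is as low as this number of arrays can reach. The median difference of the 6 genes was -24.9 microunits for overexpression and -27.5 for knockdown, beside 0.129 and -0.311 over all probe sets. In residual terms, the median moderated t was -2.43 and -3.1 for the 6 genes, beside 0.0872 and -0.241 over all probe sets. The 6 genes were chosen with earlier results of these data known, so setting them beside all probe sets is not a test.

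**Figure D2:**
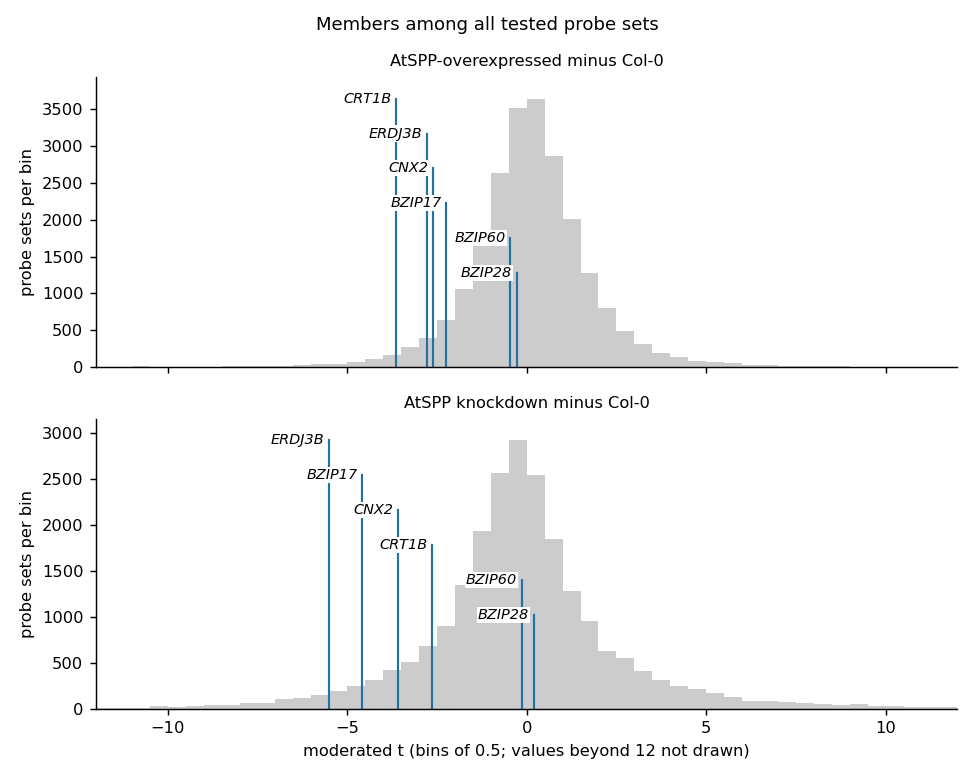
Number of probe sets per bin of the moderated t of limma (grey bars) for each transgenic kind minus Col-0, with the 6 genes as blue lines. CRT1B lies farthest to the left in the AtSPP-overexpressed lines (t = -3.65) and ERDJ3B in the knockdown lines (t = -5.52), whereas BZIP28 and BZIP60 lie near the centre in both.

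Of the 2 green-tissue markers measured, 1 changed in the knockdown comparison, in which BZIP17 and ERDJ3B were called. LHCB4.2, a light-harvesting protein of photosystem II, was 9824 microunits higher in the knockdown lines than in Col-0 (limma adjusted p = 0.00144), whereas RCA, the activase of Rubisco, differed by 0.113 (limma adjusted p = 0.992). The root marker EXPA7 differed by -2.58 microunits (limma adjusted p = 0.959). The part of tissue composition in the lower BZIP17 and ERDJ3B signals was not tested. In pooled whole seedlings, fewer cells of a type and less RNA per cell cannot be told apart.

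Rank products, the test that the methods name for the AtSPP-overexpressed lines, called 0 of the 6 genes in any of the 3 comparisons at a false positive share under 0.05, where it called 2.84% of all probe sets for overexpression, 4.68% for knockdown and 3.59% between the transgenic kinds. The lowest shares for members were both for CRT1B, 0.068 for overexpression and 0.133 for knockdown. That test ranks by how large a difference is in DFW units. ERDJ3B, with a share of 0.198 in the knockdown lines, ranked 2903 by size there, and BZIP17 ranked 11844.

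**Figure D3:**
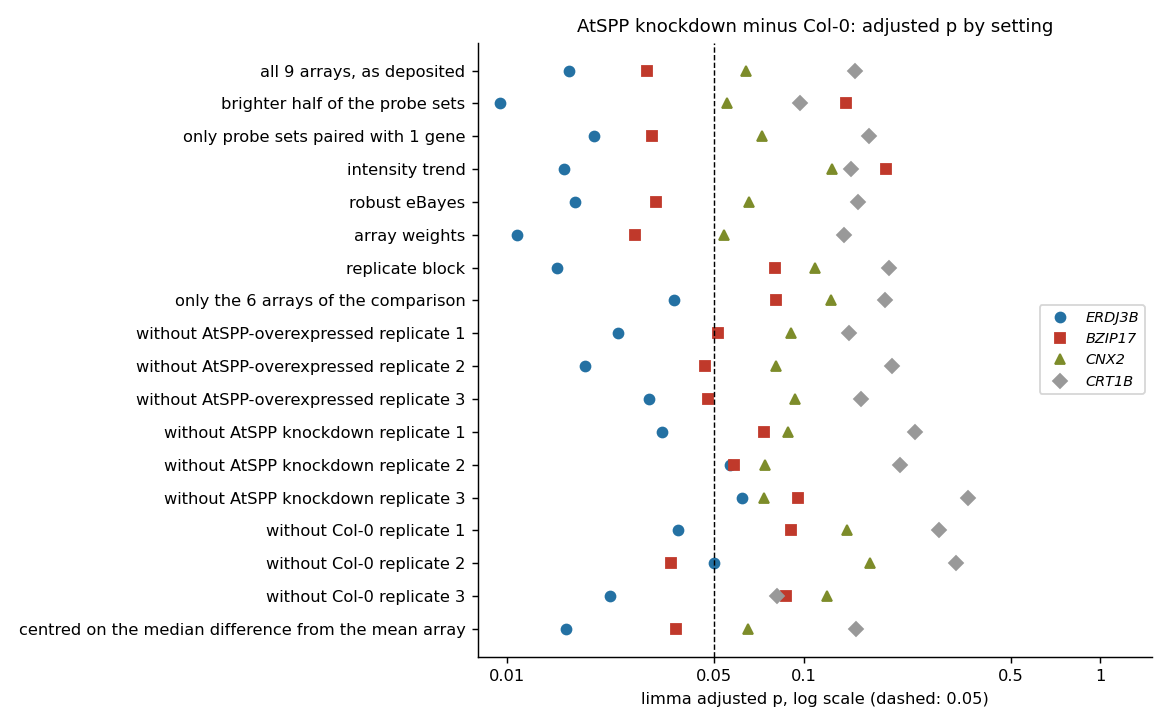
Adjusted p of limma for the knockdown lines minus Col-0 in ERDJ3B, BZIP17, CNX2 and CRT1B, under each alternative (log axis, dashed line at 0.05); rank products, quantile normalization and centring on array medians are not drawn. ERDJ3B lies to the left of the line except without knockdown replicate 2 or 3, and CNX2 and CRT1B lie to its right in every setting drawn. Of the settings not drawn, CRT1B passed after quantile normalization (0.000239) and both passed after centring on array medians (1.89e-05 for CRT1B and 1.15e-05 for CNX2), which shifted all probe sets alike.

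Set against each other, the 2 transgenic kinds had 0 of the 6 genes called in limma, where 4.33% of all probe sets were called, 2.26% higher and 2.07% lower with AtSPP overexpressed. An unadjusted p under 0.05 was reached by 1 gene, ERDJ3B, against 19.5% of all probe sets and 11.2% for higher alone. The difference was negative in 3 of the 6 and in 40.7% of all. ERDJ3B was 42.1 microunits higher in the AtSPP-overexpressed lines (95% interval 5.30 to 78.9, adjusted p = 0.2). BZIP17 was 1.83 higher there (95% interval -0.0456 to 3.70, adjusted p = 0.269). In both genes the 3 AtSPP-overexpressed arrays lay above the 3 knockdown arrays, as in 15.1% of all probe sets. For CNX2 the difference was 2.61 microunits (95% interval -3.89 to 9.11, adjusted p = 0.694) and for CRT1B -60.4 (95% interval -202 to 80.8, adjusted p = 0.67), so for both lectin chaperones the interval held differences of either sign. Quantile normalization called 3 of the 6 between the kinds (BZIP28, BZIP60 and ERDJ3B). Centring on array medians, which shifted all probe sets alike, called 5, all but BZIP60. The calls of BZIP17 and ERDJ3B in the knockdown lines alone thus do not show that these genes respond differently in the 2 kinds of line.

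**Figure D4:**
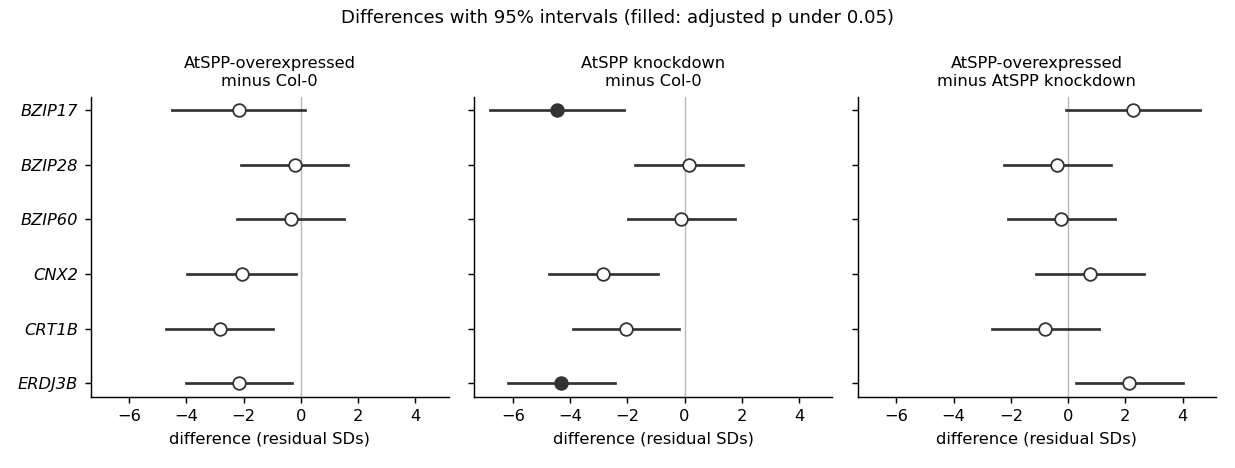
Difference between groups for each gene in residual SDs (points) with its 95% interval (lines), filled where the limma adjusted p is under 0.05. BZIP17 (-4.45) and ERDJ3B (-4.30) are the 2 filled points, both in the knockdown comparison, and the intervals of BZIP28 and BZIP60 span 0 in all 3 comparisons.

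Within groups, the genes did not move as a block. Of the 15 pairs of genes, BZIP28 and BZIP60 had the highest correlation of deviations from their group means over the 9 arrays (r = 0.79), and BZIP60 and ERDJ3B the lowest (r = -0.94). These values describe 9 arrays that every gene shares, and the pairs were picked as the extremes after their values were seen. In all 3 groups the array with the highest BZIP60 signal had the highest BZIP28 signal. In the AtSPP-overexpressed lines and Col-0 the array with the highest BZIP60 signal had the lowest ERDJ3B signal, whereas in the knockdown lines replicate 3 was highest for BZIP60 and replicate 2 lowest for ERDJ3B. CNX2 and CRT1B had an r of 0.45 and BZIP17 and ERDJ3B of 0.22 within groups, against 0.73 and 0.86 when the group differences were kept in.

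**Figure D5:**
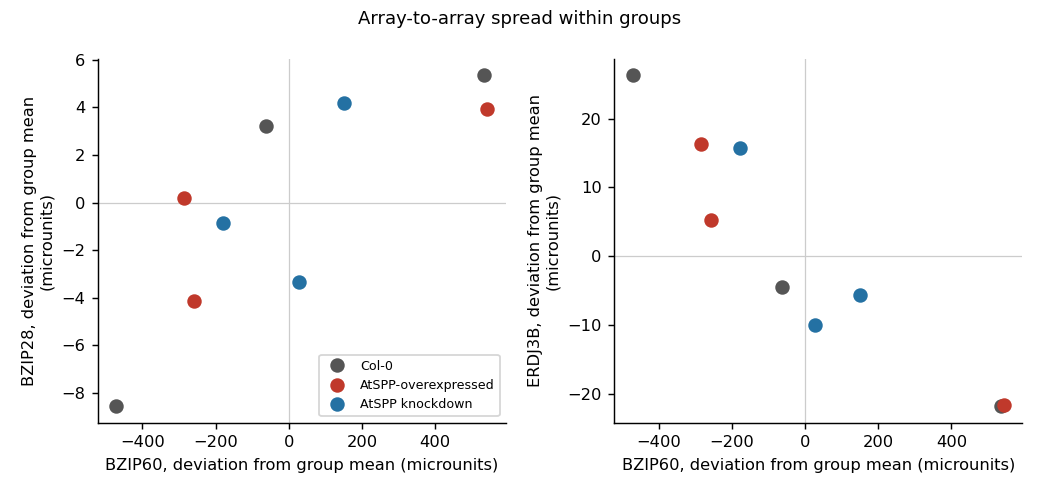
Deviation of each array from its group mean for BZIP60 (horizontal) against BZIP28 (left) and ERDJ3B (right), in microunits, with 9 arrays coloured by group. BZIP28 rises and ERDJ3B falls along the BZIP60 axis (r = 0.79 and -0.94 over 9 arrays).

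By the pattern over the 9 arrays, the named probe sets most like each gene were AT3G14820 and AT4G32920 for BZIP17 (Pearson r = 0.979 and 0.967), AT2G25735 and AT1G56610 for BZIP28 (r = 0.946 and 0.923) and AT5G25930 and AT3G50900 for BZIP60 (r = 0.964 and 0.957). They were AT3G47540 and HOS3-1 for CNX2 (r = 0.974 and 0.973), AT3G09890 and AT5G36160 for CRT1B (r = 0.938 and 0.929), and UGT78D2 and AT1G76280 for ERDJ3B (r = 0.997 and 0.987). They were picked from 9728 probe sets, of which 256 had an r over 0.9 with ERDJ3B and 7 with BZIP28. No member was among the probe sets most like another member.

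The rest of the ER folding machinery could be followed only in part, as 8730 of the 22746 probe sets are not listed in the platform annotation used. Listed genes without a probe set paired with 1 gene were not examined, so whether they changed is not known from the values below. Of 69 genes on 7 lists, which cover lectin chaperones and glycan processing, the ER HSP70 system, disulfide isomerases, sensors with their proteases, membrane-tethered NAC factors, other ER stress genes and oligosaccharyltransferase, 13 had a probe set paired with 1 gene, and 7 of these are not among the 6 described above. Of the 7, 0 passed in limma or by rank products in any comparison, and the unadjusted limma p was under 0.05 for AT2G01720 with AtSPP knocked down (0.00987) and, between the transgenic kinds, for AT2G01720 (0.0297) and ATERDJ2B (0.047). The genes named next were chosen after their values were seen. The site-1 protease gene S1P differed from Col-0 by 7.49 microunits for overexpression (limma adjusted p = 0.899) and by 21.7 for knockdown (limma adjusted p = 0.337). The site-2 protease gene AT4G20310 differed by 3.71 (limma adjusted p = 0.556) and -1.13 (limma adjusted p = 0.818). ATERDJ2A and ATERDJ2B, J-domain proteins of the ER translocon, had differences of -4.18 and 8.73 microunits in the knockdown lines (limma adjusted p = 0.905 and 0.426), where ERDJ3B fell. The lowest adjusted p among the 7 was 0.0639, for the oligosaccharyltransferase subunit gene AT2G01720 in the knockdown lines (-31.7 microunits).

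Of 9 cytosolic heat shock genes listed beside them, 2 had a probe set paired with 1 gene, both encoding HSP70 chaperones, which fold proteins outside the ER. AT3G09440 fell by 6896 microunits with AtSPP overexpressed (limma adjusted p = 0.045) and fell by 8389 with AtSPP knocked down (limma adjusted p = 0.00356). The overexpression call was lost with the 6 arrays of that comparison alone, where 0 probe sets were called. The other limma alternatives were not followed for this gene. Hsp70-2 fell by 660.3 microunits in the knockdown lines (limma adjusted p = 0.00824), and its difference for overexpression was -310.4 (limma adjusted p = 0.252).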

How the data were processed

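Each of the 9 samples was hybridized to 1 Affymetrix ATH1 array. DFW normalization by the authors gave the deposited table, with 1 signal per probe set for each array, read here on a log2 scale without further change. The log base, the version of the software and any background correction: not given in the sources used here. Probe sets were named through the platform annotation (13513 with 1 gene, 503 with several, 8730 not listed) and symbols came from the RefSeq table of TAIR10.1. The 64 AFFX controls were left out and the other 22746 probe sets were fitted together (R 4.3.3, limma 3.58.1: a linear model of the 3 groups over 9 arrays without covariates, then eBayes, with 6 residual degrees of freedom). Tests were two-sided, with Benjamini-Hochberg adjustment across the 22746 probe sets and a threshold of 0.05. Intervals are at 95%. Rank products used 9 array pairs and 100 permutations within arrays. The steps were run on simulated data with changes larger than those of the 6 genes, which does not show the power at the sizes reported. At most 7 values were identical between any 2 arrays, and all 9 were kept as separate samples. By rule, the genes named were the 6 members, AtSPP, list genes that passed in limma, and the 2 probe sets most correlated with each member whose SD was at least the lowest among members. Outside this rule, S1P, AT4G20310, ATERDJ2A, ATERDJ2B, AT2G01720, RCA and EXPA7 were named after their values were seen. Members and lists were chosen with earlier results of these data known. No scanner file was used, so it is unknown how far signals lie above background, and precision is limited by the 3 arrays per group.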

Additional observations from a re-analysis of the deposited data

Results flagged for a closer look

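AtSPP, the targeted gene, was the only one among itself and the 6 genes that differed between the 2 transgenic kinds by the test of that difference on the deposited values, by 264600 microunits with the AtSPP-overexpressed lines above (standard error 16960, limma adjusted p = 0.00183, all 3 of their arrays above every knockdown array).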

How the results depend on the processing

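The count of 2 genes called in the knockdown lines was 1 over the brighter 50% of the probe sets, with an intensity trend and with the 6 arrays alone, 0 by rank products, 4 after quantile normalization (BZIP28, BZIP60, CRT1B and ERDJ3B) and 6 after centring on array medians, and 0 to 2 with 1 array left out. That centring called 22376 of all 22746 probe sets, 380 higher and 21996 lower against 1493 and 1579 as deposited, so its calls are not particular to these genes. The count of 0 in the AtSPP-overexpressed lines was 2 after quantile normalization (BZIP28 and CRT1B), and the count of 0 between the transgenic kinds was 3 after quantile normalization and 5 after centring on array medians. Why the array medians differed, and why quantile normalization changed the counts, was not tested. With the replicate number as a block, 1 gene, ERDJ3B, was called in the knockdown lines (adjusted p = 0.0147) and BZIP17 was not (0.0804), and the AtSPP increase was not called (0.0568). Same-numbered arrays of different groups had correlations of their deviations from -0.14 to 0.21, so the numbers were not taken to pair the samples.

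After quantile normalization, differences from Col-0 turned to 169 microunits (AtSPP-overexpressed) and 209.6 (knockdown) for CNX2 and to -1216 (knockdown) for BZIP28. Between the transgenic kinds they turned to 524 for BZIP28, 945 for BZIP60, -40.5 for CNX2 and 265 for CRT1B. Centring on array medians turned BZIP28 to -551 in the knockdown lines and, between the transgenic kinds, BZIP28 to 391, BZIP60 to 294 and CRT1B to 333. Array weights turned BZIP28 to -0.868 in the knockdown lines. With 1 array left out, BZIP28 ran from -5.47 to 1.49 (AtSPP-overexpressed), from -3.46 to 3.50 (knockdown) and from -3.97 to 0.083 between the kinds. BZIP60 ran from -417 to 122, from -281 to 222 and from -371 to 42.8 in the same order, and CNX2 between the kinds from -0.428 to 4.31. Over all probe sets, the count of 124 in the AtSPP-overexpressed lines was 2625 after quantile normalization, 354 after median centring (126 higher and 228 lower, against 68 and 56 as deposited), 227 over the brighter 50%, 39 over probe sets paired with 1 gene, 2 with the block, 0 with the 6 arrays alone, 645 by rank products and 5 to 51 with 1 array left out. The 3072 of the knockdown lines were 6917 after quantile normalization, 1439 over probe sets paired with 1 gene, 1065 by rank products and 1540 to 2917 with 1 array left out. The 986 between the transgenic kinds, 515 of them higher, were 2379 after quantile normalization (1963 higher), 22155 after median centring (21862 higher), 375 over probe sets paired with 1 gene, 590 with the block, 428 with the 6 arrays alone and 343 to 923 with 1 array left out. Centring each array on its median deviation from the average array, chosen after seeing the data, changed no call of the 6 genes.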

Other observations

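The knockdown arrays come from 2 RNAi fragments. ERDJ3B was at -69.0 microunits from the Col-0 mean with the 600 bp fragment (replicate 1) and at -94.8 and -90.4 with the 400 bp fragment (replicates 2 and 3). BZIP17 was at -3.30 with the former and at -2.90 and -4.55 with the latter. With 1 array of the 600 bp fragment, no test of the fragments was made.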
